A study of Mus musculus with 12 samples.

Results

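The genes described here encode the proteins that hold epithelial cells together, namely the claudins and plaque proteins of tight junctions, cadherins and protocadherins, desmosomal proteins, connexins, keratins and adhesion proteins such as Epcam. They were chosen by gene symbol alone, from the name that the 12 h arrays give each probe. No measured value entered this rule, though earlier results of these data were known when it was set. The array carried 57 such probes for 43 genes, out of 20280 probes with 18116 distinct names. All 43 genes were found in RefSeq, and 10 of them have another symbol today, such as Krt18 for the listed Krt1-18 and Epcam for Tacstd1, and the present symbol is used below. Other genes of these structures, among them Cdh17, Dsp, Pkp2, Tjp3, Cldn7, Gjb2 and Krt20, are not analysed here. The RNA came from male FVB mice of 6 weeks that were either fed or deprived of chow for 12, 24 or 72 h, with water, and all were killed between 9 and 10 a.m. Housing was in metabolic cages, with infrared warming from 24 h. Each of the 12 arrays, 3 per time point, carried Cy3-labelled RNA from the full-thickness small intestine of a pool of 2 mice, against a Cy5-labelled reference from 6 fed mice, without dye swap. The labels disagree on the reference of fed pool 3, whose source names only mice 5 and 6. Thus n = 3 pools per time point, and p-values measure the spread between these pools.

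In the intestinal epithelium, tight junctions seal the space between neighbouring cells, and their claudins set which ions pass. Below them, adherens junctions join cells through E-cadherin, whose tail is bound by catenins that connect to actin, whereas desmosomes join the keratin filaments of neighbouring cells. Connexins form the gap junction channels through which small molecules pass from cell to cell, and keratins pair, 1 acidic with 1 basic, into the filaments that give the enterocyte mechanical strength.

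The promoters of the genes whose values are given most fully below, where RefSeq had an entry, are shown as the sequence context of the measurements, with Krt8 and Cldn3 added because they are the chromosomal neighbours of Krt18 and Cldn4 on chromosomes 15 and 5. Each runs from 250 bases before the transcription start to 50 bases from it, on the mouse assembly GRCm38.p6, and 25 of the 43 genes had an entry. Capitals mark matches, on either strand, to the TATA box TATAAA, the GC box GGGCGG, the E-box CACCTG, the CDX type motif TTTATG, the AP-1 type motif TGANTCA and the CCAAT box CCAAT.
Cldn4 (chr5:134946885-134947184, minus strand): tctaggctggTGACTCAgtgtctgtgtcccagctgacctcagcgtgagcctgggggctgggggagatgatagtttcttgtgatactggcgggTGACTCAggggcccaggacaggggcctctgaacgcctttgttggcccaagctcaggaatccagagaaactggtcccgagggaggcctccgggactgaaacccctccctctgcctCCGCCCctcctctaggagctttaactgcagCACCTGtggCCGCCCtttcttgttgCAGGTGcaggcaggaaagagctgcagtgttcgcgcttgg
Cldn3 (chr5:134985964-134986263, plus strand): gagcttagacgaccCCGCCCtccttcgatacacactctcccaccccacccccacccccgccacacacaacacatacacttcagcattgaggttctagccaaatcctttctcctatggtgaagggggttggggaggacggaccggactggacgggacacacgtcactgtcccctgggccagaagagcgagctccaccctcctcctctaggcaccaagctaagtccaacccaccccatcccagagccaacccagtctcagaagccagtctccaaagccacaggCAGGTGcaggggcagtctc
Krt18 (chr15:102027966-102028265, plus strand): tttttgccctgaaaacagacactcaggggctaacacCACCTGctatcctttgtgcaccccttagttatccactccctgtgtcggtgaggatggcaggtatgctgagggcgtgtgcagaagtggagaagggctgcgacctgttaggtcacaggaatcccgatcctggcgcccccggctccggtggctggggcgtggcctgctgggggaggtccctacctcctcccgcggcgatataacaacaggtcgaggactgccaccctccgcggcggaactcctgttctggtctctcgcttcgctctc
Krt8 (chr15:102004293-102004592, minus strand): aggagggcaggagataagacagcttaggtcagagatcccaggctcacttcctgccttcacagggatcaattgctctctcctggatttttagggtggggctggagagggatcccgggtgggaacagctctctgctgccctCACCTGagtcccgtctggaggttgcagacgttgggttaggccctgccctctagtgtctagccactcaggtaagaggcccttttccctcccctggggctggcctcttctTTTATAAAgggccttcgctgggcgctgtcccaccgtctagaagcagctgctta
Jup (chr11:100397741-100398040, minus strand): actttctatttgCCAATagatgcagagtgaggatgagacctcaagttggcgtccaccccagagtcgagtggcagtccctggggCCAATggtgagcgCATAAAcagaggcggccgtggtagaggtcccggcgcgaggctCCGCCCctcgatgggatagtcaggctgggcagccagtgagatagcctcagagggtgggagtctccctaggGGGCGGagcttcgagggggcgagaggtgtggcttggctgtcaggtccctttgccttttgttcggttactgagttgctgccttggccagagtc
Pcdh18 (chr3:49757267-49757566, minus strand): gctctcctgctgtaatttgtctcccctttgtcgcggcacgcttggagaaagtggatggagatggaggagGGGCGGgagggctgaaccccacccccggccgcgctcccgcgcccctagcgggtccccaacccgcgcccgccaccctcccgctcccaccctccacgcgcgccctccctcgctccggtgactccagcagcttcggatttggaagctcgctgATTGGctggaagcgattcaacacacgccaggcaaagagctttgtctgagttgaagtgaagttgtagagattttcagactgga

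The Cldn4 window held 2 matches to the AP-1 type motif, at 240 and 158 bases before the start, 2 to the E-box and 2 to the GC box. That of its neighbour Cldn3 held 1 GC box and 1 E-box and no match to the AP-1 type motif. Both keratin windows held 1 E-box, at 214 bases before the start in Krt18 and at 111 in Krt8. The Jup window held 2 GC boxes, 2 CCAAT boxes and 1 match to the CDX type motif, and that of Pcdh18 held 1 GC box and 1 CCAAT box. Among all 32851 promoters in the table, 20.2% held the E-box, 35.7% the GC box, 37.4% the CCAAT box, 13.6% the TATA box, 11.9% the CDX type motif and 7.81% the AP-1 type motif. Of the 32 promoters listed for these genes, 13 held the E-box, 16 the GC box, 10 the CCAAT box, 6 the TATA box, 5 the CDX type motif and 5 the AP-1 type motif. A match describes letters and is not a measured site.

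The ratios must be read with 3 features of the arrays. Fed and 72 h arrays share a file format and a median Cy5 intensity of 124 to 142, whereas 12 h and 24 h arrays share another, with 392 to 627, so that a difference of 12 or 24 h from the fed pools cannot be told apart from a difference between formats. The comparison of 72 h with 0 h, and that of 24 h with 12 h, lie within a format. Fed pool 3 stood apart, being over 1 (log2) away from the mean of the other 2 fed pools at 8 of 53 junction and keratin probes. The same count was 2 for fed pool 1 and 5 for fed pool 2, where that mean includes fed pool 3. The log2 ratios of these probes had an SD of 1.03 on 12 h pool 3, against 0.62 and 0.61 on the other 12 h arrays, and its reference channel was over 1 (log2) from the median of the other arrays at 13 probes. Each difference that passed the test was also refitted without each of the 6 arrays of its 2 time points in turn, called single omissions below. For each junction or keratin probe described that passed against the fed pools, the difference is also given without fed pool 3 and 12 h pool 3 together. These 2 arrays were chosen after seeing the data. Of the 57 probes, 31 gave a Cy3 signal well above background on all 12 arrays and 56 did so on each array of some time point, and 0 were saturated. In the fed pools, 8 were not well above background on any array, so that their differences from fed rest on dim signals. Among these were the Cldn8, Cldn10, Cdh16 and Cdh23 probes, a Pcdh7 probe and a Jup probe.

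Against the fed pools, 11 of the 57 probes (19.3%) passed the test at 12 h, beside 10.8% of all probes. Of these 9 were higher and 2 lower, beside 4.82% and 6.00% of all probes. At 24 h, 3 probes passed (5.26%), beside 10.1% of all probes, 2 of them higher and 1 lower, beside 3.82% and 6.30%. At 72 h, 9 probes passed (15.8%), beside 10.6% of all probes, 6 of them higher and 3 lower, beside 4.85% and 5.71%. A probe passed where limma's p, adjusted by Benjamini-Hochberg over all probes, was under 0.05. The median log2 difference of the 57 probes was 0.12, 0.10 and 0.14 after 12, 24 and 72 h, against -0.020, 0.018 and 0.010 for all probes. The 3 fasted pools did not overlap the 3 fed pools at 17 of 47 probes with all values at 12 h, 19 of 53 at 24 h and 20 of 51 at 72 h, and over all probes at 28.9%, 40.0% and 41.1%. Altogether 15 probes of 13 genes passed at 1 or more time points, whereas 42 probes did not pass at any, and 30 genes had no probe that passed. Without fed pool 3 and 12 h pool 3, 5, 8 and 11 of the 57 probes passed after 12, 24 and 72 h, beside 4.69%, 16.6% and 14.6% of all probes. The 3 comparisons share the fed pools and are therefore not independent. In bulk tissue, fewer cells of a type and less RNA per cell cannot be told apart.

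**Figure D1:**
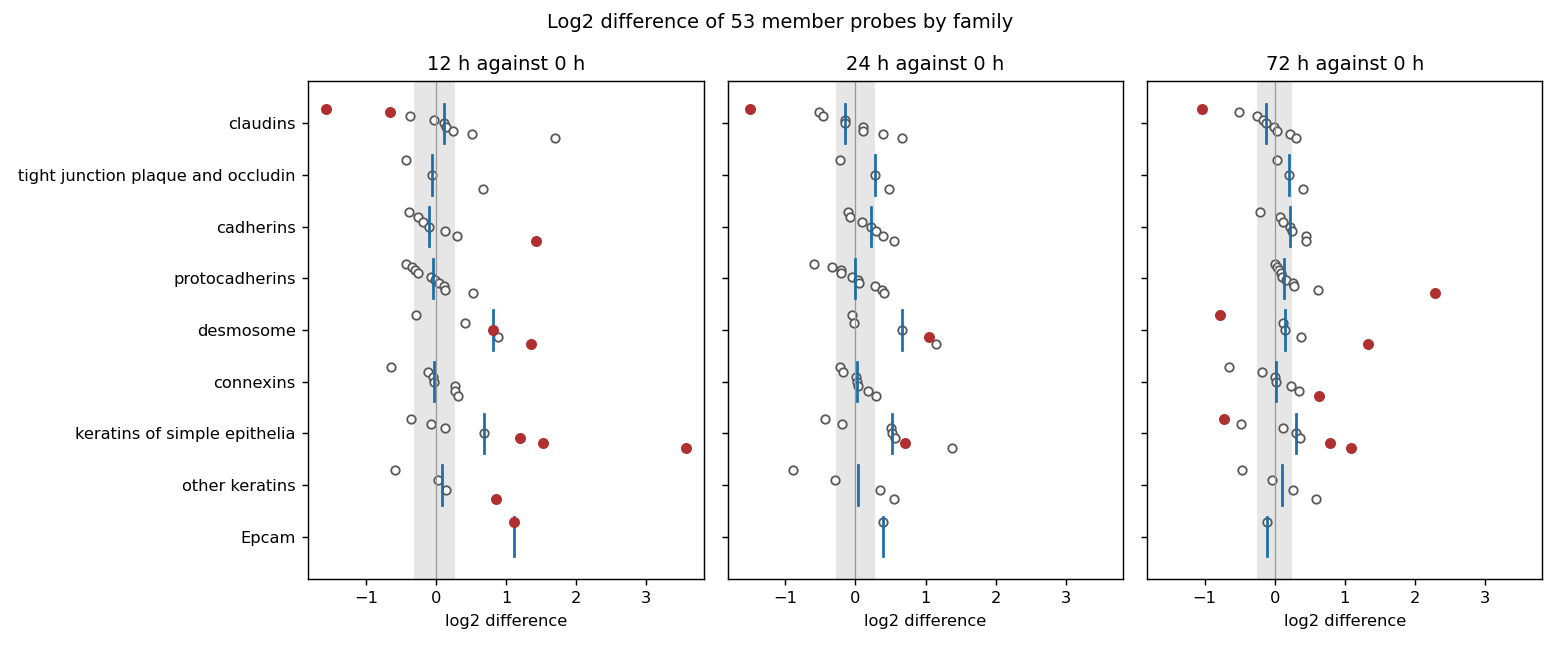
Log2 difference from the fed pools of 53 probes at 12, 24 and 72 h, by family, where filled red points passed the test, open points did not, blue bars are medians of the points shown and the grey band spans the middle 50% of all probes. At 12 h the points that passed lie furthest out among the keratins of simple epithelia, where Krt19 reached 3.56, and among the claudins, where Cldn4 lay at -1.57.

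The common reference was also tested by itself, since it should not change with fasting. In Cy5 alone, 20 of the 57 probes passed at 12 h, 10 at 24 h and 0 at 72 h, beside 21.7%, 20.6% and 0 of all probes. At 72 h, 4 of the 57 probes and 4.13% of all probes had an unadjusted p under 0.05 in limma's fit of Cy5. Of the 11 probes that passed on the ratio at 12 h, 9 also passed in Cy5 alone and 8 changed more in Cy5 than in Cy3. Only 1 of the 11, a Jup probe, passed in Cy3 alone. At 24 h, 2 of the 3 passed in Cy3 alone and 0 in Cy5, and at 72 h 2 of the 9 passed in Cy3 alone and 0 in Cy5. Over all 57 probes, whether or not they passed on the ratio, 8 passed in Cy3 alone at 12 h, 10 at 24 h and 5 at 72 h, beside 14.8%, 24.6% and 8.44% of all probes. The part of the reference channel in the 12 h differences was not tested, and the change in each channel is given beside them.

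**Figure D2:**
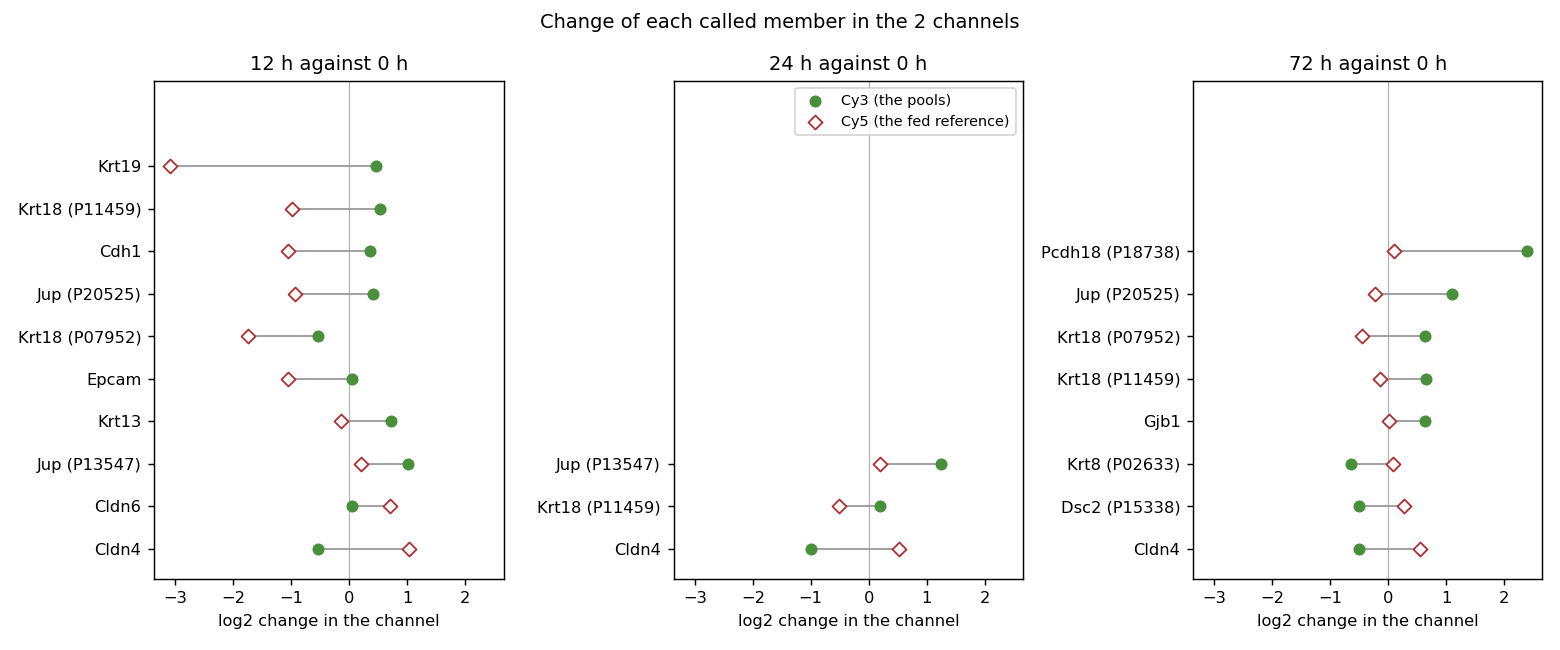
Change of each probe described in the text that passed the test at 12, 24 or 72 h against the fed pools, split into the Cy3 channel of the pools (filled circles) and the Cy5 channel of the fed reference (open diamonds), in log2 units. At 12 h the diamonds of Krt19, Cdh1, Epcam, Krt18 and 1 Jup probe lie well below 0, whereas at 72 h the diamonds lie within 0.55 of 0.

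Among the 8 claudins, Cldn4, which tightens the barrier, was lower than in the fed pools at each time point. Cldn4 had log2 ratios of -0.22, 0.22 and 0.27 in the fed pools, -1.74, -1.17 and -1.51 at 12 h, -1.44, -1.31 and -1.51 at 24 h, and the 72 h pools had -1.04 and -0.87 (pools 2 and 3). Every fasted pool with a value lay below every fed pool. The difference from the fed pools was -1.57 ± 0.19 (log2, SE; 2.96-fold lower, adjusted p = 0.002) at 12 h, -1.51 ± 0.19 (log2, SE; 2.85-fold lower, adjusted p = 0.00097) at 24 h and -1.04 ± 0.21 (log2, SE; 2.06-fold lower, adjusted p = 0.0064) at 72 h, where 1 pool had been marked as an outlier. By channel it was -0.54 in Cy3 and 1.03 in Cy5 at 12 h, -0.99 in Cy3 and 0.52 in Cy5 at 24 h and -0.50 in Cy3 and 0.55 in Cy5 at 72 h. The channels moved in opposite directions, with the larger change in the reference at 12 h and in the pools at 24 h. At 72 h the reference changed slightly more than the pools. In Cy3 alone the call held at 24 h and was lost at 12 and 72 h. Without fed pool 3 and 12 h pool 3 the difference on the ratio was -1.46 (adjusted p = 0.0083), -1.42 (adjusted p = 0.0014) and -0.96 (adjusted p = 0.011). When single arrays were left out, the calls at 12 and 24 h held in every fit, and at 72 h the difference in single omissions was -1.20 to -0.96, and the call was lost without 72 h pool 2 (adjusted p up to 0.058).

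Cldn6, a claudin best known from embryonic epithelia, was the other that passed, at 12 h only. Cldn6 had log2 ratios of 0.39, 0.38 and 0.31 in the fed pools, -0.43, 0.052 and -0.51 at 12 h, -0.36, 0.044 and -0.17 at 24 h, and the 72 h pools had 0.42, 0.29 and 0.45. All 12 h and 24 h pools lay below the fed pools, and the 72 h pools overlapped them. The difference at 12 h was -0.65 ± 0.17 (log2, SE; 1.57-fold lower, adjusted p = 0.03), yet by channel it was 0.042 in Cy3 and 0.70 in Cy5, where Cy3 alone has the opposite sign. With both arrays left out it was -0.57 (adjusted p = 0.088). In single omissions the difference was -0.83 to -0.55, and the call was lost without fed pool 1, 2 or 3 or 12 h pool 3 (adjusted p up to 0.086). At 24 h it was -0.52 ± 0.17 (adjusted p = 0.07) and at 72 h 0.026 ± 0.17 (adjusted p = 0.94).

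Of the other claudins none passed against the fed pools. Cldn15 forms a cation pore in the small intestine. Cldn15 had log2 ratios of 0.49, 0.51 and -1.71 in the fed pools, 0.68, 0.93 and 2.76 at 12 h, 0.26, 0.59 and 0.41 at 24 h, and the 72 h pools had -1.04, -0.36 and -0.84. Fed pool 3 lay far below the other fed pools, and all 12 h pools lay above all fed pools. The difference was 1.69 ± 0.55 (adjusted p = 0.061) at 12 h, 0.66 ± 0.55 (adjusted p = 0.46) at 24 h and -0.51 ± 0.55 (adjusted p = 0.61) at 72 h. Cldn2, the cation and water pore of leaky epithelia, differed by -0.026 ± 0.30 (adjusted p = 0.96), -0.15 ± 0.30 (adjusted p = 0.79) and -0.25 ± 0.30 (adjusted p = 0.65). For the sealing claudin Cldn1 the values were 0.11 ± 0.19 (adjusted p = 0.74), 0.11 ± 0.19 (adjusted p = 0.76) and -0.12 ± 0.19 (adjusted p = 0.75). Cldn3, next to Cldn4 on chromosome 5, differed by 0.14 ± 0.19 (adjusted p = 0.66), -0.15 ± 0.19 (adjusted p = 0.64) and 0.30 ± 0.19 (adjusted p = 0.34), and thus did not pass where its neighbour did. The difference between the neighbours was not tested. The 3 probes of Cldn8 and Cldn10 lay between -0.46 and 0.52, with the 2 Cldn8 probes on opposite sides of 0 at each time point. None of these 3 probes was well above background on any fed array. Over the 9 claudin probes the median was 0.11, -0.15 and -0.12 after 12, 24 and 72 h.

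Occludin and the scaffold Tjp1 did not pass against the fed pools. Occludin (Ocln), a membrane protein of the tight junction strand, differed by -0.43 ± 0.18 (adjusted p = 0.13) at 12 h, -0.22 ± 0.18 (adjusted p = 0.44) at 24 h and 0.031 ± 0.18 (adjusted p = 0.93) at 72 h. Tjp1, which ties claudins to actin, had 1 probe at 0.67 ± 0.24 (adjusted p = 0.084), 0.48 ± 0.24 (adjusted p = 0.21) and 0.40 ± 0.24 (adjusted p = 0.33), and another at -0.056 ± 0.22 (adjusted p = 0.89), 0.27 ± 0.22 (adjusted p = 0.44) and 0.20 ± 0.22 (adjusted p = 0.62).

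In the adherens junction, Cdh1, which encodes E-cadherin, was higher at 12 h. Cdh1 had log2 ratios of -0.17 and -0.21 (pools 2 and 3) in the fed pools, 0.49, 0.93 and 2.29 at 12 h, 0.18, 0.58 and 0.33 at 24 h, and the 72 h pools had 0.17, 0.38 and 0.23. Every fasted pool lay above the 2 fed pools that had a value. The difference at 12 h was 1.43 ± 0.37 (log2, SE; 2.69-fold higher, adjusted p = 0.03), made up of 0.36 in Cy3 and -1.06 in Cy5, and without fed pool 3 and 12 h pool 3, where 1 fed pool remains, it was 0.88 (adjusted p = 0.053). In single omissions the difference was 0.90 to 1.80, and the call was lost without fed pool 1, 2 or 3. Fed pool 1 had no Cdh1 value, so that leaving it out changed the test but not the difference. At 24 h Cdh1 differed by 0.55 ± 0.37 (adjusted p = 0.36) and at 72 h by 0.45 ± 0.37 (adjusted p = 0.5). The other 5 cadherins (Cdh2, Cdh3, Cdh11, Cdh16 and Cdh23), of which Cdh2 and Cdh11 are known from neural and mesenchymal cells, had 6 probes, and none passed. They lay between -0.39 and 0.30 at 12 h, between -0.10 and 0.39 at 24 h and between -0.21 and 0.45 at 72 h.

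The catenins are named in the older way on this array and so lie outside the 43 genes, but those that bind at E-cadherin complete the adherens junction. The list also holds Catnal1 and Catnbip1, which are not catenins of this complex and did not pass against the fed pools. Of 6 genes measured, each counted on its probe with the highest mean Cy3 signal, 2 were higher at 12 h. At 24 h 1 was lower and at 72 h 1 was lower. Of all probes, 4.82% were higher at 12 h, 6.30% lower at 24 h and 5.71% lower at 72 h. For Catnb, which encodes β-catenin, 1 probe was lower at 72 h. This Catnb probe had log2 ratios of -0.29, -0.37 and 0.93 in the fed pools, 0.097, 0.093 and -0.17 at 12 h, 0.10, 0.47 and 0.22 at 24 h, and the 72 h pools had -1.19, -0.63 and -1.05. The 72 h pools lay below all fed pools, with a difference of -1.05 ± 0.28 (adjusted p = 0.029), whereas the second probe gave -0.61 ± 0.36 (adjusted p = 0.33). Catns, the catenin that binds E-cadherin next to the membrane, was higher at 12 h on 1 probe, 1.77 ± 0.48 (adjusted p = 0.034), and differed by 0.23 ± 0.24 (adjusted p = 0.54) on the other. Catna1, encoding α-catenin, was higher at 12 h by 0.89 ± 0.25 (adjusted p = 0.038), with -1.16 in Cy3 and -2.05 in Cy5. Catnd2, a catenin known from neurons, was lower at 24 h, with a difference of -0.73 ± 0.16 (adjusted p = 0.014). Without fed pool 3 and 12 h pool 3, the differences were -0.63 (adjusted p = 0.031) for this Catnb probe, 0.59 (adjusted p = 0.074) for Catns, 0.44 (adjusted p = 0.24) for Catna1 and -0.77 (adjusted p = 0.0093) for Catnd2, so that neither 12 h call remained.

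Of the 3 desmosomal genes, Jup, encoding plakoglobin, which also binds E-cadherin, was higher on both probes at 12 h. Jup probe A_65_P13547 had log2 ratios of -0.19, 0.076 and -0.17 in the fed pools, 0.45, 1.03 and 0.65 at 12 h, 1.08, 0.55 and 1.24 at 24 h, and the 72 h pools had 0.29, 0.31 and 0.25. Its 12 h, 24 h and 72 h pools all lay above the fed pools. The difference was 0.80 ± 0.20 (log2, SE; 1.75-fold higher, adjusted p = 0.022) at 12 h, 1.05 ± 0.20 (log2, SE; 2.07-fold higher, adjusted p = 0.0072) at 24 h and 0.38 ± 0.20 (adjusted p = 0.25) at 72 h. By channel it was 1.01 in Cy3 and 0.21 in Cy5 at 12 h and 1.25 in Cy3 and 0.20 in Cy5 at 24 h. This probe was not well above background on any fed array, so that its rise has only a bound, at least 1.44-fold at 12 h and at least 1.81-fold at 24 h. The bound sets the fasted mean in Cy3 against the fed mean, in which each dim array counts as the higher of the probe's own signal and the lowest signal of any probe well above background, after loess and Aquantile normalization, and it is open to dye bias. Leaving both arrays out, the difference was 0.80 (adjusted p = 0.066) at 12 h and 1.01 (adjusted p = 0.0093) at 24 h. At 12 h the difference in single omissions was 0.64 to 0.93, and the call was lost without fed pool 1 or 3 or 12 h pool 2 (adjusted p up to 0.077), and at 24 h the call held in all 6 fits.

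The second Jup probe, A_65_P20525, had log2 ratios of 0.019, 0.49 and -1.56 in the fed pools, 0.85, 1.04 and 1.12 at 12 h, 0.76, 0.93 and 0.70 at 24 h, and the 72 h pools had 0.99, 1.20 and 0.73. Fed pool 3 lay well below the other fed pools, and all fasted pools lay above all fed pools. The difference was 1.35 ± 0.36 (log2, SE; 2.56-fold higher, adjusted p = 0.031) at 12 h, 1.15 ± 0.36 (adjusted p = 0.058) at 24 h and 1.32 ± 0.36 (log2, SE; 2.50-fold higher, adjusted p = 0.031) at 72 h. By channel it was 0.41 in Cy3 and -0.94 in Cy5 at 12 h and 1.11 in Cy3 and -0.22 in Cy5 at 72 h. Thus the pools changed less than the reference at 12 h and more at 72 h. Omitting the 2 arrays gave 0.69 (adjusted p = 0.061) at 12 h and 0.72 (adjusted p = 0.018) at 72 h. For 12 h, the difference in single omissions was 0.75 to 1.77, and the call was lost without fed pool 1 or 3 or 12 h pool 2 or 3 (adjusted p up to 0.065). At 72 h the difference in single omissions was 0.72 to 1.74, and the call was lost without fed pool 3 or 72 h pool 1, 2 or 3 (adjusted p up to 0.11).

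The desmosomal cadherin Dsc2 had 2 probes on opposite sides of 0 at each time point, and 1 was lower at 72 h. Dsc2 probe A_65_P15338 had log2 ratios of -0.22, -0.25 and 0.35 in the fed pools, -0.46, -0.19 and -0.34 at 12 h, 0.0079, -0.0035 and -0.20 at 24 h, and the 72 h pools had -0.98, -0.64 and -0.82. The 72 h pools lay below all other pools. The difference at 72 h was -0.78 ± 0.18 (log2, SE; 1.71-fold lower, adjusted p = 0.014), with -0.51 in Cy3 and 0.27 in Cy5, and -0.58 (adjusted p = 0.021) without the 2 arrays. At 72 h the difference in single omissions was -0.88 to -0.58, and the call was lost without fed pool 3 or 72 h pool 1 (adjusted p up to 0.082). This probe gave -0.29 ± 0.18 (adjusted p = 0.3) at 12 h and -0.026 ± 0.18 (adjusted p = 0.94) at 24 h, whereas the other gave 0.89 ± 0.32 (adjusted p = 0.089), 0.66 ± 0.32 (adjusted p = 0.21) and 0.14 ± 0.32 (adjusted p = 0.83) at the 3 time points. Dsg2, the other desmosomal cadherin measured, differed by 0.41 ± 0.30 (adjusted p = 0.39) at 12 h, -0.05 ± 0.27 (adjusted p = 0.93) at 24 h and 0.12 ± 0.27 (adjusted p = 0.83) at 72 h.

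Among the connexins, Gjb1, the main connexin of hepatocytes, was higher at 72 h. Gjb1 had log2 ratios of -0.20, -0.31 and -0.46 in the fed pools, -0.42, -0.088 and 0.35 at 12 h, -0.31, -0.43 and -0.18 at 24 h, and the 72 h pools had 0.43, 0.28 and 0.19. All 72 h pools lay above all fed pools, and the 12 h and 24 h pools overlapped them. The difference at 72 h was 0.62 ± 0.19 (log2, SE; 1.54-fold higher, adjusted p = 0.046), with 0.64 in Cy3 and 0.02 in Cy5, and 0.56 (adjusted p = 0.027) without the 2 arrays. In single omissions the difference was 0.56 to 0.69, and the call was lost in all 6 (adjusted p from 0.076 to 0.19). At 12 h it differed by 0.27 ± 0.19 (adjusted p = 0.35) and at 24 h by 0.019 ± 0.19 (adjusted p = 0.96). Gja1, a connexin of smooth muscle and many other cells, did not pass, and its 2 probes lay on opposite sides of 0 at each time point. One gave -0.05 ± 0.26 (adjusted p = 0.92), -0.22 ± 0.26 (adjusted p = 0.62) and -0.65 ± 0.26 (adjusted p = 0.13), and the other 0.32 ± 0.24 (adjusted p = 0.39), 0.30 ± 0.24 (adjusted p = 0.44) and 0.34 ± 0.24 (adjusted p = 0.41). Gja3, Gja4, Gjb5 and Gjc1 did not pass at any time point and lay between -0.64 and 0.27.

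The keratins of simple epithelia gave 3 of 7 probes higher at 12 h, 1 higher at 24 h, and 2 higher and 1 lower at 72 h. The shares of all probes that were higher were 4.82%, 3.82% and 4.85%, and 5.71% were lower at 72 h. Krt18, the acidic keratin that pairs with Krt8, was higher on both probes at 12 and 72 h. Krt18 probe A_65_P11459 had log2 ratios of 0.011, 0.0028 and -0.0061 in the fed pools, 1.13, 1.4 and 2.03 at 12 h, 0.54, 0.95 and 0.62 at 24 h, and the 72 h pools had 0.68, 1.00 and 0.67. The fed pools agreed closely and every fasted pool lay above them. The difference was 1.52 ± 0.21 (log2, SE; 2.86-fold higher, adjusted p = 0.0022) at 12 h, 0.70 ± 0.21 (log2, SE; 1.63-fold higher, adjusted p = 0.047) at 24 h and 0.78 ± 0.21 (log2, SE; 1.72-fold higher, adjusted p = 0.029) at 72 h. By channel it was 0.53 in Cy3 and -0.99 in Cy5, 0.20 in Cy3 and -0.50 in Cy5 and 0.65 in Cy3 and -0.14 in Cy5. The reference changed more than the pools at 12 and 24 h and less at 72 h. When both were left out it was 1.26 (adjusted p = 0.0083), 0.70 (adjusted p = 0.016) and 0.78 (adjusted p = 0.0084). At 12 h the call held in all 6 single omissions. At 24 h the difference in single omissions was 0.58 to 0.78, and the call was lost in all 6 (adjusted p from 0.083 to 0.15). At 72 h the difference in single omissions was 0.67 to 0.84, and the call was lost in all 6 (adjusted p from 0.056 to 0.12).

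The second Krt18 probe, A_65_P07952, had log2 ratios of 0.29, 0.58 and -0.77 in the fed pools, 1.17, 1.74 and 0.81 at 12 h, 0.50, 0.72 and 0.57 at 24 h, and the 72 h pools had 1.07, 1.35 and 0.94. The 12 h and 72 h pools lay above all fed pools, of which pool 3 was the lowest, and the 24 h pools overlapped fed pool 2. The difference was 1.20 ± 0.30 (log2, SE; 2.30-fold higher, adjusted p = 0.023) at 12 h, 0.56 ± 0.30 (adjusted p = 0.24) at 24 h and 1.08 ± 0.30 (log2, SE; 2.12-fold higher, adjusted p = 0.031) at 72 h. By channel it was -0.54 in Cy3 and -1.74 in Cy5 at 12 h, where Cy3 alone has the opposite sign, and 0.64 in Cy3 and -0.44 in Cy5 at 72 h. At 72 h the pools changed more than the reference. Without the 2 arrays it was 1.02 (adjusted p = 0.023) at 12 h and 0.68 (adjusted p = 0.029) at 72 h. For 12 h, the difference in single omissions was 0.80 to 1.48, and the call was lost without fed pool 3 or 12 h pool 2 (adjusted p up to 0.083). At 72 h the difference in single omissions was 0.68 to 1.36, and the call was lost without fed pool 1 or 3 or 72 h pool 1, 2 or 3 (adjusted p up to 0.13).

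Krt8, the basic partner that neighbours Krt18 on chromosome 15, was lower at 72 h on 1 probe. Krt8 probe A_65_P02633 had log2 ratios of 0.015, 0.27 and 0.28 in the fed pools, -0.20, 0.039 and -0.37 at 12 h, -0.29, -0.16 and -0.31 at 24 h, and the 72 h pools had -0.62, -0.38 and -0.59. All 72 h pools lay below all fed pools. The difference was -0.36 ± 0.16 (adjusted p = 0.14) at 12 h, -0.44 ± 0.16 (adjusted p = 0.089) at 24 h and -0.72 ± 0.16 (log2, SE; 1.65-fold lower, adjusted p = 0.0093) at 72 h, with -0.64 in Cy3 and 0.081 in Cy5. With both arrays left out it was -0.67 (adjusted p = 0.0095) at 72 h, and the difference in single omissions was -0.81 to -0.67, and the call was lost without 72 h pool 1 (adjusted p up to 0.057). It was also lost with loess within each array, with loess and Aquantile and with the Feature Extraction log ratio. Over 18 settings of the processing and arrays the difference was -1.18 to -0.34, with limma's adjusted p up to 0.14. The second Krt8 probe had the opposite sign at each time point, 0.69 ± 0.24 (adjusted p = 0.085), 0.52 ± 0.22 (adjusted p = 0.15) and 0.30 ± 0.22 (adjusted p = 0.44), so that the 2 probes disagree on the direction of Krt8. This second probe was far dimmer, with a log2 Cy3 signal of 7.01 to 7.93, against 13.25 to 14.30 for the first. Both were well above background on all arrays.

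Krt19, an acidic keratin of the intestinal lining, gave the largest difference of the 57 probes at 12 h. Krt19 had log2 ratios of 0.24, 0.24 and -2.18 in the fed pools, 1.16 and 4.84 (pools 2 and 3) at 12 h, 0.86, 0.91 and 0.66 at 24 h, and the 72 h pools had -0.39, 0.24 and -0.45. Fed pool 3 and 12 h pool 3 lay far from the others of their time points, in opposite directions. The difference was 3.56 ± 0.84 (log2, SE; 11.8-fold higher, adjusted p = 0.021) at 12 h, 1.37 ± 0.75 (adjusted p = 0.26) at 24 h and 0.36 ± 0.75 (adjusted p = 0.81) at 72 h. By channel the 12 h difference was 0.47 in Cy3 and -3.09 in Cy5. On 12 h pool 3 the log2 reference signal of Krt19 was 7.14, whereas on the other 10 arrays with a value it was 11.66 to 12.61. Leaving both arrays out, where only pool 2 remains at 12 h, the 12 h difference was 0.91. In single omissions the difference was 1.72 to 5.40, and the call was lost without fed pool 3 or 12 h pool 3 (adjusted p up to 0.13).

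Krt7, a basic keratin of ducts and goblet cells, did not pass on either probe. One gave -0.072 ± 0.18 (adjusted p = 0.82), -0.19 ± 0.18 (adjusted p = 0.54) and -0.48 ± 0.18 (adjusted p = 0.11) at the 3 time points, and the other 0.12 ± 0.16 (adjusted p = 0.65), 0.51 ± 0.16 (adjusted p = 0.063) and 0.12 ± 0.16 (adjusted p = 0.69). Among the 4 keratins of stratified epithelia and hair, Krt13, known from the lining of mouth and oesophagus, was higher at 12 h. Krt13 had log2 ratios of -0.18 and -0.84 (pools 2 and 3) in the fed pools, 0.14, 0.50 and 0.39 at 12 h, 0.069, 0.06 and -0.0076 at 24 h, and the 72 h pools had 0.20, -0.17 and 0.20. The 2 fed pools with a value lay below every fasted pool, fed pool 2 only narrowly below the lowest 72 h pool. The difference at 12 h was 0.85 ± 0.21 (log2, SE; 1.81-fold higher, adjusted p = 0.026), with 0.72 in Cy3 and -0.13 in Cy5, and 0.50 (adjusted p = 0.2) without the 2 arrays, where 1 fed pool remains. In single omissions the difference was 0.52 to 1.18, and the call was lost without fed pool 3 or 12 h pool 2 (adjusted p up to 0.2). The other 3 (Krt10, Krt14 and Krt86) did not pass against the fed pools and lay between -0.89 and 0.35.

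Epcam, the adhesion protein of the basolateral membrane of intestinal cells, was higher at 12 h. Epcam had log2 ratios of 0.20 and 0.15 (pools 1 and 3) in the fed pools, 1.02 and 1.56 (pools 2 and 3) at 12 h, 0.74, 0.74 and 0.21 at 24 h, and the 72 h pools had -0.037, 0.19 and 0.02. The 12 h pools lay above all others, and the 72 h pools overlapped the fed ones. The difference was 1.12 ± 0.24 (log2, SE; 2.17-fold higher, adjusted p = 0.016) at 12 h, 0.39 ± 0.22 (adjusted p = 0.27) at 24 h and -0.11 ± 0.22 (adjusted p = 0.8) at 72 h. At 12 h it was 0.051 in Cy3 and -1.06 in Cy5. With both arrays left out, and thus 1 pool at each of the 2 time points, it was 0.82 (adjusted p = 0.11). In single omissions the difference was 0.85 to 1.38, and the call was lost without fed pool 1 or 3 or 12 h pool 3 (adjusted p up to 0.074).

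**Figure D3:**
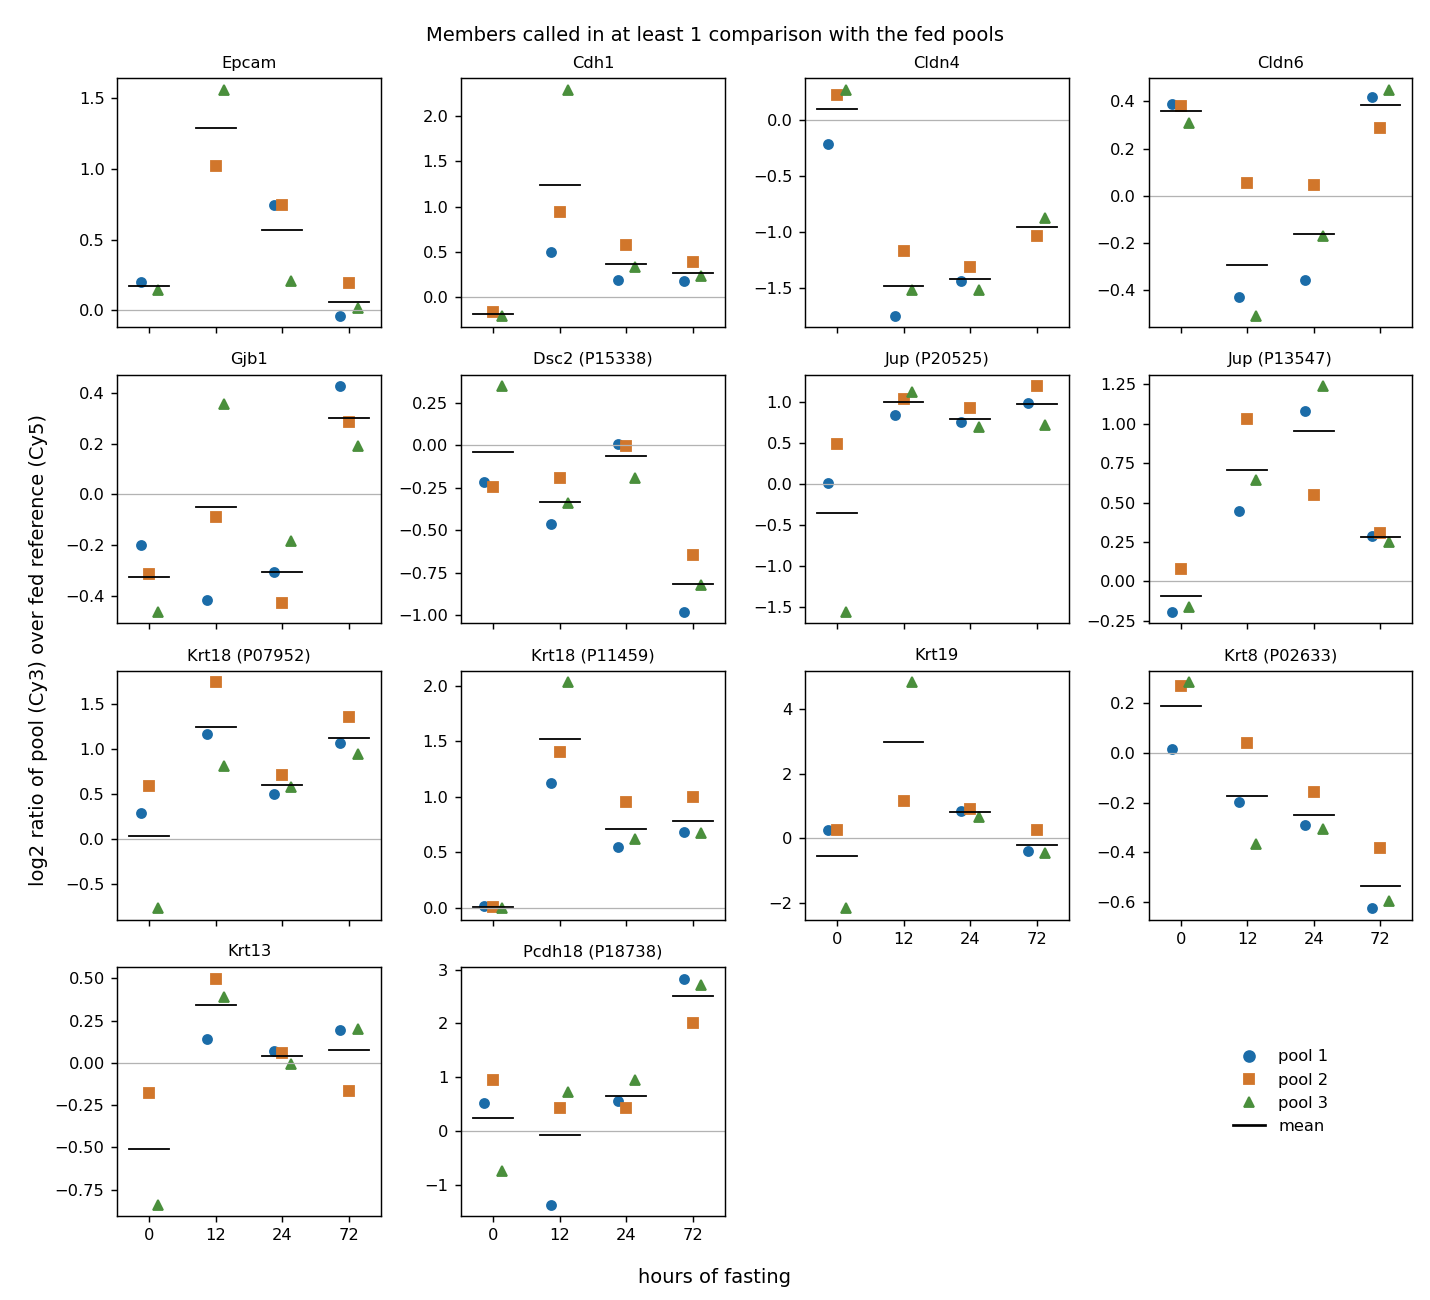
Log2 ratio of each pool over the fed reference at 0, 12, 24 and 72 h of fasting for 14 probes described in the text that passed the test in at least 1 comparison with the fed pools, where symbols mark pools 1 to 3, which are different mice at each time point, and bars the mean. Cldn4 is low in all fasted pools, Pcdh18 is high at 72 h only, and fed pool 3 lies far below the other fed pools for Krt19 and Jup probe A_65_P20525.

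Among the 6 protocadherins, whose products mediate weak adhesion and are best known from neurons, Pcdh18 was higher at 72 h on 1 of its probes. Pcdh18 probe A_65_P18738 had log2 ratios of 0.51, 0.94 and -0.75 in the fed pools, -1.37, 0.43 and 0.72 at 12 h, 0.57, 0.43 and 0.95 at 24 h, and the 72 h pools had 2.83, 2.01 and 2.71. All 72 h pools lay above all others, while the fed and the 12 h pools were spread over more than 1 log2 unit. The difference was -0.31 ± 0.48 (adjusted p = 0.7) at 12 h, 0.41 ± 0.48 (adjusted p = 0.62) at 24 h and 2.28 ± 0.48 (log2, SE; 4.86-fold higher, adjusted p = 0.0076) at 72 h, with 2.39 in Cy3 and 0.11 in Cy5 at 72 h. Omitting the 2 arrays gave 1.79 (adjusted p = 0.01), and the difference in single omissions was 1.79 to 2.63 and passed the test in all 6. The second Pcdh18 probe gave -0.43 ± 0.25 (adjusted p = 0.26), -0.054 ± 0.25 (adjusted p = 0.91) and 0.62 ± 0.25 (adjusted p = 0.13). The other 8 protocadherin probes (Pcdh7, Pcdh12, Pcdhb11, Pcdhb17 and Pcdhgc5) did not pass and lay between -0.60 and 0.53. Pcdhb11, Pcdhb17 and Pcdhgc5 belong to clusters of similar genes, and their probes may bind RNA of other members.

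**Figure D4:**
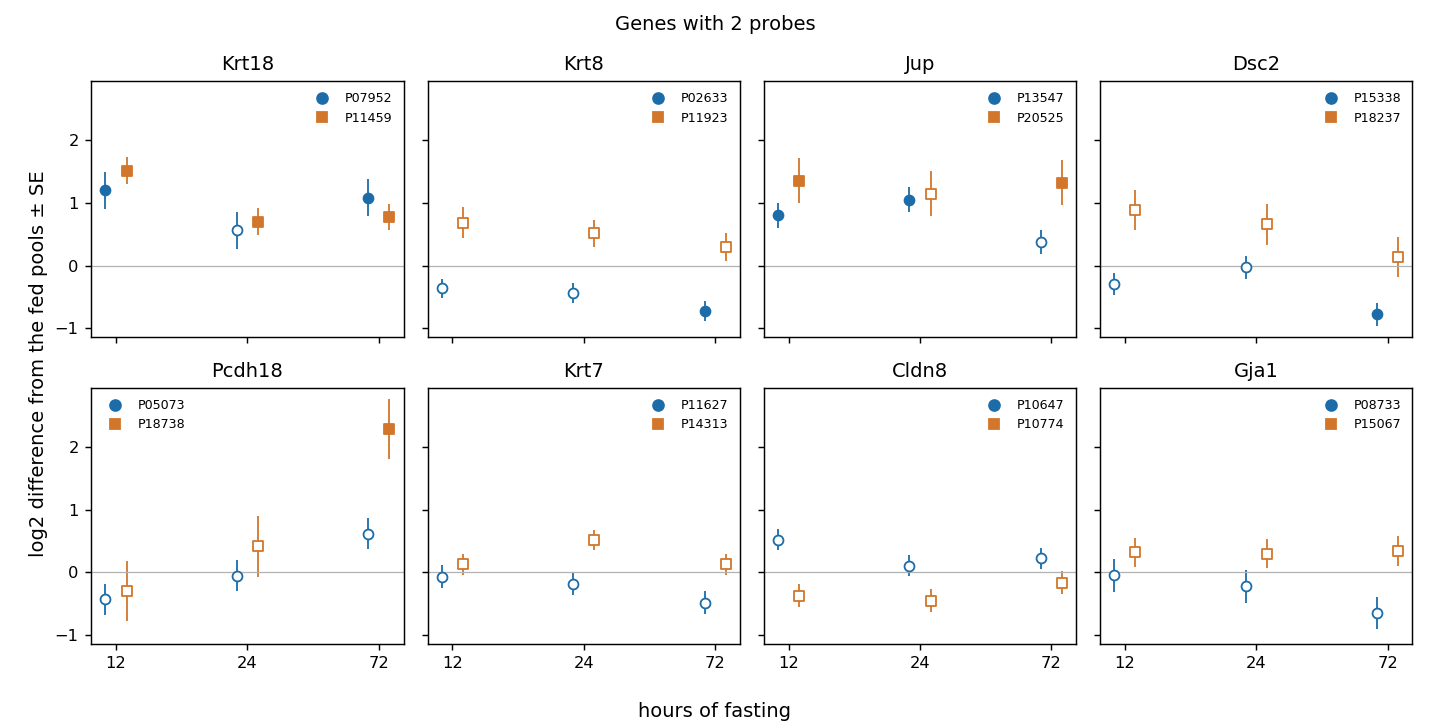
Log2 difference from the fed pools, with its SE, at 12, 24 and 72 h for 8 genes with 2 probes, where filled symbols passed the test. Both Krt18 probes lie above 0 at each time point, whereas the 2 probes of Krt8, of Dsc2, of Cldn8 and of Gja1 lie on opposite sides of 0. Neither Cldn8 probe was well above background on any fed array.

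**Figure D5:**
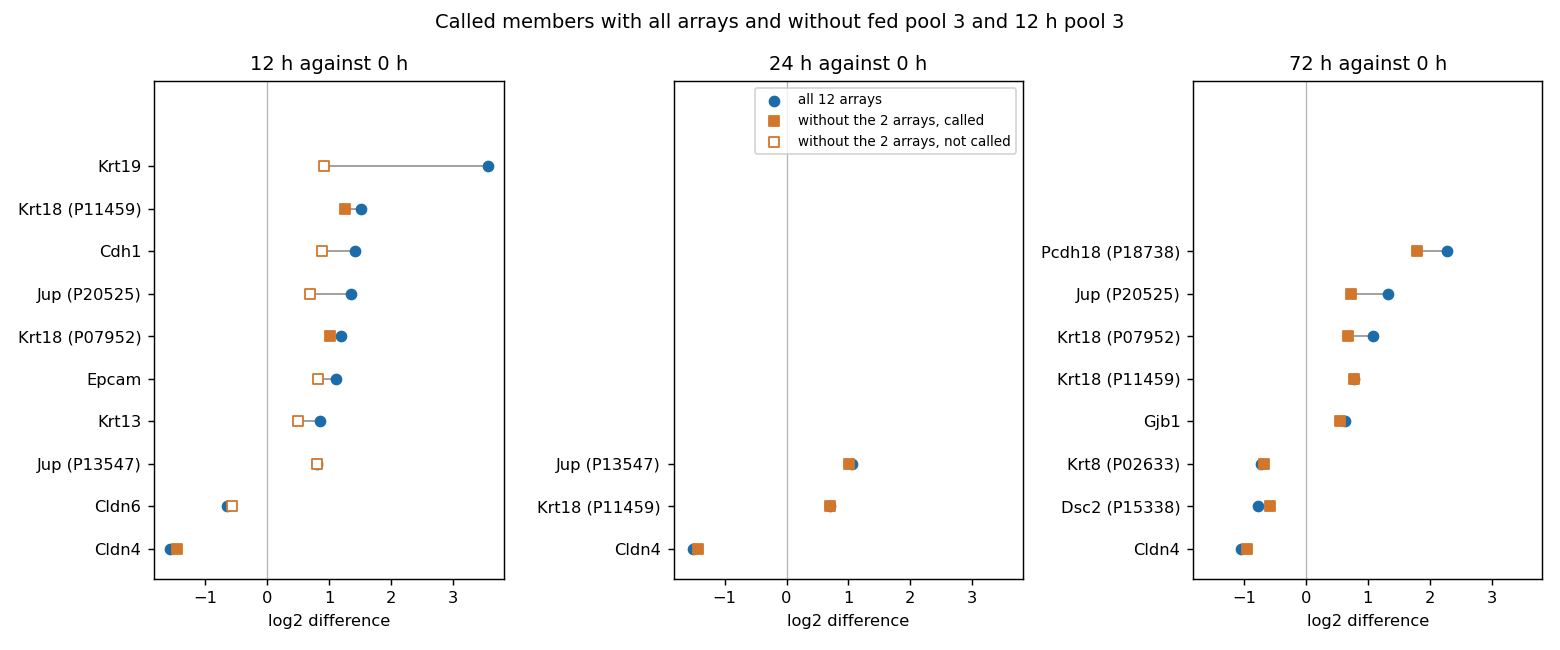
Log2 difference of each probe described in the text that passed the test, with all 12 arrays (circles) and without fed pool 3 and 12 h pool 3 (squares, filled where the probe still passed). Of the probes shown, 3 of 10 still passed at 12 h, 3 of 3 at 24 h and 8 of 8 at 72 h, and Krt19 at 12 h moved from 3.56 to 0.91. Without these arrays, chosen after seeing the data, 4.69%, 16.6% and 14.6% of all probes passed, against 10.8%, 10.1% and 10.6% with all 12. Krt18 probe A_65_P11459 at 24 and 72 h and Gjb1 at 72 h passed here but in none of the 6 single omissions.

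The fasted time points were also compared with each other. Between 24 h and 12 h, which share a file format, 0 of the 57 probes passed in limma's fit, beside 2.90% of all probes, and 13 had an unadjusted p under 0.05, beside 21.0% of all probes. In Cy3 alone 5 passed, beside 8.23% of all probes. The comparisons of 72 h with 24 h and with 12 h cross the file formats, so that time and format cannot be told apart in them. Between 72 h and 24 h, 3 of 57 passed, 1 higher and 2 lower, beside 10.5% of all probes, or 5.88% higher and 4.67% lower. Pcdh18 probe A_65_P18738 was higher at 72 h than at 24 h by 1.87 ± 0.48 (log2, SE; 3.65-fold higher, adjusted p = 0.024), while Dsc2 probe A_65_P15338 was lower, with a log2 difference of -0.75 ± 0.18 (log2, SE; 1.68-fold lower, adjusted p = 0.018) and Jup probe A_65_P13547 was lower, with a log2 difference of -0.67 ± 0.20 (log2, SE; 1.59-fold lower, adjusted p = 0.043). Each of the 3 lost its call in single omissions. For Pcdh18 the difference in single omissions was 1.71 to 2.12, and the call was lost without 24 h pool 1, 2 or 3 or 72 h pool 1 or 3 (adjusted p up to 0.11). For Dsc2 the difference in single omissions was -0.84 to -0.67, and the call was lost without 24 h pool 1 or 2 or 72 h pool 1 or 3 (adjusted p up to 0.099). For Jup the difference in single omissions was -0.88 to -0.53, and the call was lost without 24 h pool 1 or 3 or 72 h pool 1, 2 or 3 (adjusted p up to 0.16).

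Between 72 h and 12 h, 8 of 57 passed, 4 higher and 4 lower, beside 10.6% of all probes, or 5.82% higher and 4.75% lower. Both Pcdh18 probes were higher at 72 h, by 2.59 ± 0.48 (log2, SE; 6.01-fold higher, adjusted p = 0.005) and 1.05 ± 0.25 (log2, SE; 2.07-fold higher, adjusted p = 0.016), as were Cldn6, by 0.68 ± 0.17 (log2, SE; 1.60-fold higher, adjusted p = 0.023), and the hair keratin Krt86, by 0.85 ± 0.21 (log2, SE; 1.80-fold higher, adjusted p = 0.022). Epcam was lower at 72 h than at 12 h by -1.23 ± 0.22 (log2, SE; 2.34-fold lower, adjusted p = 0.0055), and Cldn15 was lower, with a log2 difference of -2.21 ± 0.55 (log2, SE; 4.62-fold lower, adjusted p = 0.02). Krt19 was lower, with a log2 difference of -3.20 ± 0.84 (log2, SE; 9.17-fold lower, adjusted p = 0.029) and Krt18 probe A_65_P11459 was lower, with a log2 difference of -0.74 ± 0.21 (log2, SE; 1.67-fold lower, adjusted p = 0.038). In Cy3 alone the sign turned for Cldn6, at -0.092, and for this Krt18 probe, at 0.12. Pcdh18 probe A_65_P18738 and Epcam passed in all 6 single omissions. The call of Cldn15, Krt19, this Krt18 probe or Cldn6 was lost without 12 h pool 3. The difference was then -1.56 (adjusted p = 0.054) for Cldn15, -0.48 (adjusted p = 0.092) for Krt18 and 0.57 (adjusted p = 0.052) for Cldn6. For Krt19, where only 12 h pool 2 then remains, it was -1.36. The calls of the second Pcdh18 probe, Krt86, Krt18, Cldn15, Krt19 and Cldn6 were each lost without at least 1 of the 72 h pools, with adjusted p up to 0.15.

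The other genes that build or anchor junctions were followed in fixed lists. Here and in the marker lists below, each gene was counted on its probe with the highest mean Cy3 signal. Beside these counts, 4.82% of all probes were higher and 6.00% lower at 12 h. The shares were 3.82% and 6.30% at 24 h, and 4.85% and 5.71% at 72 h. Of 9 measured scaffold and polarity genes, Prkcz, a polarity kinase, was higher and Dlgh1 lower at 12 h, with differences of 1.28 ± 0.39 (adjusted p = 0.048) and -0.89 ± 0.27 (adjusted p = 0.046), and 0 passed at 24 or 72 h, where limma's unadjusted p was under 0.05 for 0 and 1 of the 9. Of 3 nectins, which initiate cell contacts, Pvrl3 was lower at 12 h, with a difference of -0.80 ± 0.19 (adjusted p = 0.021), and at 72 h, with -0.89 ± 0.19 (adjusted p = 0.0086). Among 15 linkers to actin, 4 were higher at 12 h, 3 at 24 h and 2 at 72 h, and 0 were lower. Without fed pool 3 and 12 h pool 3, 0 of these calls remained at 12 h, 3 at 24 h and 1 at 72 h, and those lost at 12 h (Zyx, Vasp, Tln and Iqgap1) had adjusted p from 0.051 to 0.31 in limma's fit. Iqgap1, a scaffold that binds E-cadherin and actin, was higher at each time point, by 0.70 ± 0.18 (adjusted p = 0.025), 1.07 ± 0.18 (adjusted p = 0.0036) and 0.65 ± 0.18 (adjusted p = 0.029). The median of the 15 was 0.42, 0.33 and -0.14.

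Of 5 hemidesmosome and plakin genes, Plec1, encoding plectin, which links keratins to their anchors, was higher at 72 h by 1.14 ± 0.24 (adjusted p = 0.0071). Of 8 other intermediate filament genes, 3 were higher at 12 h, 1 at 24 h and 1 at 72 h, and 1 was lower at 72 h, of which 1, 1 and 2 remained without fed pool 3 and 12 h pool 3. Des, the filament of muscle, was higher by 1.72 ± 0.38 (adjusted p = 0.014), 2.02 ± 0.38 (adjusted p = 0.0069) and 1.38 ± 0.38 (adjusted p = 0.03). Of 13 transcription regulators of epithelia, Elf3 and Klf5 were higher at 12 h, by 1.43 ± 0.28 (adjusted p = 0.009) and 2.92 ± 0.29 (adjusted p = 0.002). At 24 h these 2 and Foxa1 were higher, and at 72 h 0 of 13 passed, 2 of them with an unadjusted p under 0.05 in limma's fit. In Cy3 alone Klf5 changed by -0.014 at 12 h and in Cy5 by -2.93. The 2 measured genes of the wider cadherin family did not pass. Without fed pool 3 and 12 h pool 3, the calls of other genes named in these lists were lost at 12 h for Prkcz (0.61, adjusted p = 0.057), Dlgh1 (-0.46, adjusted p = 0.29), Pvrl3 (-0.44, adjusted p = 0.097) and Iqgap1 (0.61, adjusted p = 0.078). At 24 h that of Foxa1 was lost (0.55, adjusted p = 0.074), and at 72 h that of Iqgap1 (0.54, adjusted p = 0.053). The calls that remained were, at 72 h, those of Pvrl3 (-0.69, adjusted p = 0.0053) and Plec1 (0.82, adjusted p = 0.0042), and, at 24 h, those of Iqgap1 (0.95, adjusted p = 0.0048), Elf3 (0.85, adjusted p = 0.012) and Klf5 (1.00, adjusted p = 0.024). Elf3 at 12 h remained at a lower value (0.87, adjusted p = 0.037), and Klf5 at 12 h could not be fitted. Des remained at each time point, with 1.74 (adjusted p = 0.013), 1.64 (adjusted p = 0.003) and 1.00 (adjusted p = 0.024).

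Since the RNA was of the full thickness of the gut, markers of its other cells were read beside these genes. Their counts stand beside 4.82% of all probes higher and 6.00% lower at 12 h. These shares were 3.82% and 6.30% at 24 h, and 4.85% and 5.71% at 72 h. All 5 measured enterocyte markers were well above background on all arrays, and 1, Anpep, was higher at 12 h by 3.44 ± 0.77 (adjusted p = 0.016). By channel Anpep changed by 1.27 in Cy3 and -2.17 in Cy5, and without fed pool 3 and 12 h pool 3 its difference was 1.46 (adjusted p = 0.0093). Of 8 smooth muscle genes, 5 were higher at 12 h, 3 at 24 h and 2 at 72 h, and 1 was lower at 72 h, of which 3, 2 and 3 remained without the 2 arrays. Their mean log2 ratio per pool was -0.54 to 0.013 in the fed pools, 0.45 to 1.31 at 12 h, 0.33 to 0.52 at 24 h and -0.17 to 0.088 at 72 h. This mean lay above the fed pools at 12 h, where Krt18, Krt19, Cdh1 and Epcam were higher and Cldn4 and Cldn6 lower. At 72 h it overlapped the fed pools, whereas both Krt18 probes were still higher and Cldn4 still lower. At 12 h Acta2 (0.99 in Cy3, -1.38 in Cy5), Actg2 (0.68, -1.11) and Smtn (0.54, -0.89) changed more in Cy5. Mylk (1.12, -0.46) and Des (1.25, -0.47) changed more in Cy3. The mean of the enterocyte markers was -0.77 to 0.096 in the fed pools and 0.012 to 1.44 at 12 h, with a median difference of -0.031. The part of either list in the 12 h differences of these junction genes was not tested. Of 6 fibroblast genes 3 were lower at 72 h, as were all 3 B and plasma cell genes and the goblet cell gene Agr2. At 12 h the B cell gene Igk-V and the Paneth cell gene Mmp7, of 2 measured, were higher, and at 24 h Igj was lower, and the calls of Mmp7 (0.65, adjusted p = 0.18) and of Igj at 24 h (-0.64, adjusted p = 0.059) were lost without the 2 arrays. None of the endothelial (3), neural (3), squamous skin (3), T cell (3) and exocrine pancreas (1) markers passed against the fed pools. Over these marker lists, the lists of junction and filament genes above and the catenins, 6 of 20 probes that had passed at 12 h and could be fitted still passed without fed pool 3 and 12 h pool 3, as did 8 of 11 at 24 h and 15 of 16 at 72 h. Over all probes, fewer passed at 12 h without these arrays and more passed at 24 and 72 h.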

How the data were processed

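Small-intestinal RNA of 12 pools, 3 per time point, was measured on 2-colour Agilent arrays, and GEO titles gave each pool its time point. The authors deposited raw scanner files from Agilent's Feature Extraction software, with a median intensity for each spot and its local background in either channel, not yet corrected or normalized. The deposited log10 ratio, which the software had already background-subtracted and dye-normalized, served only as an alternative, and some of its cells had a moved decimal point, which was set back by size. The study's analysis of variance was not repeated, and the series value table, which holds the same ratios, was not used.

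Intensities were background-corrected with normexp (offset 50). Of 21446 spots per array, 1075 controls and 91 retired spots were left out, and the 24 channels were quantile normalized. Outlier spots were set to missing, and limma 3.58.1 (R 4.3.3) was fitted to log2(Cy3/Cy5) on all 12 arrays, with a mean per time point and eBayes. P-values were adjusted by Benjamini-Hochberg over all probes. The fit was tested on simulated data first. Other tools were pandas 2.3.3, Python 3.11.15, the R package data.table (1.17.8) and matplotlib 3.10.9. Promoters came from RefSeq.

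The genes and lists were chosen with earlier results of these data known. All probes that passed against the fed pools, and a list of epithelial junction genes whatever their values, are named, as are those that passed between fasted time points, and others are given as counts and ranges. Some of the genes are counted but not reported here. Pool numbers 1 to 3 recur at each time point, but the mice differ. Signal over background and the number of arrays limit the precision.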

Additional observations from a re-analysis of the deposited data

Results flagged for a closer look

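At 10 probes of these genes, with 11 differences in all, the difference from the fed pools was not the same at 72 h as at an earlier time point, by limma's test of the difference itself. The files at 72 h differ in format from those at 12 and 24 h. Between 72 and 24 h this held for Pcdh18 probe A_65_P18738 (1.87), Dsc2 probe A_65_P15338 (-0.75) and Jup probe A_65_P13547 (-0.67), given as log2 differences of 72 h minus 24 h. Between 72 and 12 h it held for Pcdh18 probes A_65_P18738 (2.59) and A_65_P05073 (1.05), Krt86 (0.85), Cldn6 (0.68), Krt18 probe A_65_P11459 (-0.74), Epcam (-1.23), Cldn15 (-2.21) and Krt19 (-3.20), given as 72 h minus 12 h. In Cy3 alone the sign turned for Cldn6 and for the Krt18 probe.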

How the results depend on the processing

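The 34 differences that passed the test in any comparison were each recomputed under 17 or 18 settings, which gave 601 recomputed values in all. Of these values, 399 stayed past the threshold with the same direction, 198 kept the direction but not the call, and 4 turned the sign. The 4 were in Cy3 alone, for Krt18 probe A_65_P07952 at 12 h (-0.54), Cldn6 at 12 h (0.042), Cldn6 at 72 h against 12 h (-0.092) and Krt18 probe A_65_P11459 at 72 h against 12 h (0.12). Only 4 of the 34 passed in every setting. Of the 148 differences from the fed pools that did not pass, 107 passed in no setting and 86 had the opposite sign in at least 1.

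The number of the 57 probes that passed, 11 at 12 h, was 6 without background correction, 7 with the Feature Extraction log ratio and 0 with only the 2 time points in the fit. At 24 h, 3 became 8 with loess, with median centring, with loess and Aquantile and with the Feature Extraction ratio. The count was also 8 at the study's thresholds of p 0.01 and 1.4-fold. It was 10 in Cy3 alone, beside 24.6% of all probes, 6 with only the 2 time points and 1 with 1 probe per gene. At 72 h, 9 became 5 in Cy3 alone, beside 8.44% of all probes. Between 24 and 12 h, 0 became 5 in Cy3 alone, beside 8.23% of all probes, and 5 at the study's thresholds. Between 72 and 24 h, 3 became 7 with loess, 7 with loess and Aquantile, 5 with the Feature Extraction ratio, 9 in Cy3 alone, 13 with only the 2 time points and 5 at the study's thresholds. Between 72 and 12 h, 8 became 4 without background correction, 1 with median centring, 5 with the Feature Extraction ratio and 2 with only the 2 time points. The cause of these moves was not tested. Where no share of all probes stands beside a count in this section, the count is not set against all probes. A move in such a count cannot be read as particular to these genes. The split into higher and lower, 9 and 2 at 12 h and 6 and 3 at 72 h, was 5 and 4 and 2 and 5 with median centring, and 4 and 3 at 12 h with the Feature Extraction ratio. Leaving out 1 array gave 3 to 14 at 12 h, 2 to 4 at 24 h, 2 to 8 at 72 h, 0 to 3 between 24 and 12 h, 0 to 2 between 72 and 24 h and 2 to 11 between 72 and 12 h. Leaving out fed pool 3 and 12 h pool 3 together, which was chosen after seeing the data, gave 5 at 12 h and 8 at 24 h, beside 4.69% and 16.6% of all probes.

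The pool numbers do not pair the samples, since the deviations of same-numbered pools correlated at -0.29 to 0.13 and 4 of 12 arrays correlated best with their own number. With the replicate block 9, 2, 8, 0, 2 and 6 probes passed in the 6 comparisons.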
